A study of Populus tremula x Populus alba with 64 samples.

Results

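Two-on-two hemoglobin-3 is a poplar gene, listed in the count files as gene 7471550, and it is 1 of 37173 gene identifiers there. It was taken up because the study named it from its comparison of auxin-sprayed with control roots at 11 days, so that the level in those libraries chose the gene. Any value that uses the AE or the control-AE roots of 11 days is therefore a description with no test, while the other 14 groups took no part in the choice and allow tests.

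Plant hemoglobins are heme proteins that bind oxygen and other small gases such as nitric oxide. The two-on-two, or truncated, hemoglobins are globins whose helices stack in a flatter sandwich around the heme than those of the classical globins. Plants carry them beside the symbiotic and non-symbiotic hemoglobins. In Arabidopsis the truncated hemoglobin gene is expressed in both roots and shoots, and the classical non-symbiotic hemoglobins are known for scavenging nitric oxide when oxygen is scarce, whereas the work done by the truncated form is less well known.

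The libraries came from rooted cuttings of the poplar hybrid clone INRA 717-1B4 (Populus tremula x Populus alba), whose leaves were sprayed. AE plants received auxin enhancers, a mixture of the synthetic auxin NAA at 3 µM and the auxin IBA at 4.5 µM, and AI plants received NPA, an inhibitor of polar auxin transport, at 100 µM. The control-AE and control-AI plants were the controls of each arm and were sprayed with the 1 N KOH solution alone. Roots and stems were taken at 24 h and at 11 days, which gives 16 groups, all of this 1 clone, and 64 libraries of polyadenylated RNA.

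Of the 64 libraries, 50 held at least 1000000 counts and were used, 28 of roots and 22 of stems, in groups of 2 to 6. Their totals ran from 3947526 to 21094004 counts with a median of 11322818. The other 14 libraries held 93182 to 545250 counts, which gave the hemoglobin gene 1 to 43 counts each, and they enter alternatives only. The labels call 14 libraries low in depth, but for control-AE roots of 11 days replicates 2 and 3 the label and the depth are the reverse of each other, and replicate 2 was used. No 2 libraries of a group held identical counts, and among 63 replicate pairs the chi-square per degree of freedom was 5.21 or more. The labels number the replicates without naming the plants, so the p-values measure the spread between these libraries.

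The gene had 1 row in the files, transcript XM_002309538.3, and no row of another gene overlapped it. Its span of 2069 bp ran from 25228437 to 25230505 on the minus strand of the sequence the files call NC_037290.1, where the names are those of RefSeq. The study's methods name a Phytozome release of the Populus trichocarpa genome, so the build of these coordinates was not settled. The 4 exons measured 366, 131, 145 and 491 bp in the direction of transcription and together made 1133 bp. The files give exons only, so coding and untranslated parts were not told apart.

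**Figure D1:**
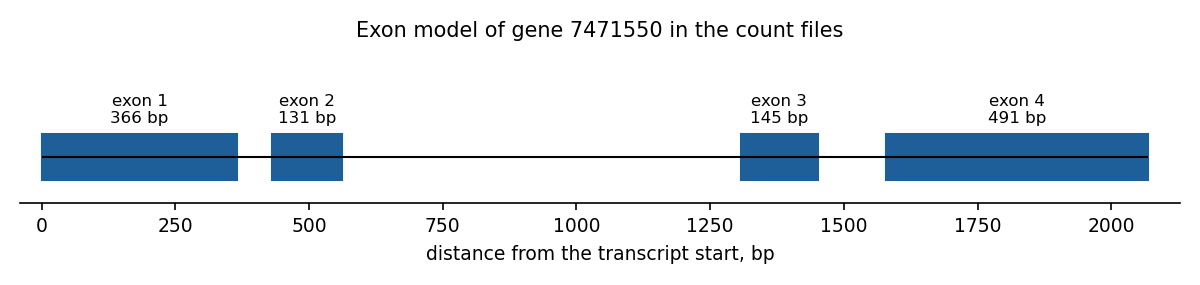
The 4 exons of gene 7471550 as filled blocks along the distance from the transcript start in bp, with introns as the line between them. The last exon, of 491 bp, is the longest, and the intron between exons 2 and 3 takes up most of the unfilled length.

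The gene was well counted in every library used, with 222 to 1640 counts. Levels are given as counts per 1000000 library counts (CPM), scaled by the TMM method, which corrects library totals for differences in composition, and 95% exact Poisson intervals of single libraries cover counting error only. Across the 28 root libraries the level ran from 21.7 to 52.1 CPM with a median of 31.5, and across the 22 stem libraries from 31.0 to 112 CPM with a median of 58.7. Per kilobase of exon, the median was 27.8 CPM in roots and 51.8 CPM in stems, which placed the gene at the 81.1 percentile of 27674 expressed rows in the median root library and at the 90.1 percentile in the median stem library. The gene thus stood in the upper part of the expressed rows of both tissues. In these bulk samples, more cells that express the gene and more of its RNA per cell cannot be told apart.

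In roots of 11 days, AE-roots held 30.2 CPM in the lowest of 6 libraries, 35.0 at the median and 40.9 in the highest. Their control-AE roots held 48.2, 50.0 and 52.1 CPM. Every AE library lay below every control-AE library. For this gene the chi-square per degree of freedom of the control-AE libraries was 0.974, which is the size of counting error. Over all rows, pairs of these libraries had 18.1 to 72.2. These libraries took part in the choice of the gene, so their closeness at this gene is a description and no support for the level. AI-roots held 35.7, 34.8, 29.9 and 30.5 CPM, and their control-AI roots held 26.5, 33.1, 26.1 and 28.9 CPM. These groups overlapped, and the AE-roots overlapped with both of them.

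At this gene, the control-AE roots of 11 days were the group that stood apart among roots. All 3 libraries lay above the other 25 root libraries, of which the highest, an AE-root of 11 days, held 40.9 CPM, and the median of those 25 was 30.2 CPM. The values just inside and just outside this gap were 48.2 and 40.9 CPM. The choice of the gene used these libraries, so the gap is a description and no support for a high level. The share of all rows with such a gap was not counted. The 2 control-AE libraries of low depth held 5 and 6 counts, or 34.5 CPM (interval 11.2 to 80.6) and 49.9 CPM (interval 18.3 to 109), and these intervals reach both sides of the gap.

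In roots of 24 h, AE-roots held 25.0, 32.6 and 26.7 CPM, where the last library has no replicate number in its label, and control-AE roots held 26.2, 22.9 and 21.7 CPM. AI-roots held 35.3 and 27.7 CPM, and control-AI roots held 35.4, 28.3 and 26.0 CPM. All 4 groups of this time lay between 21.7 and 35.4 CPM, and both treated groups overlapped with their own controls. The control-AE roots, which were the highest root group at 11 days, had the lowest mean of all 16 groups at 24 h.

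Stems were higher and more uneven. In stems of 11 days, AE-stems held 112, 84.2, 92.3, 100.2 and 51.1 CPM, and control-AE stems held 54.3, 96.9 and 46.9 CPM. AI-stems held 77.1 and 69.9 CPM, and control-AI stems held 35.5, 85.8 and 58.0 CPM. Among control-AE stems, replicate 2 at 96.9 CPM was far above the others, and control-AI stems were spread over a wide range. In AE-stems, replicate 6 at 51.1 CPM was the lowest, with 84.2 CPM next. AE replicate 5 had the lowest total of all libraries used, and its level was 77.0 CPM before TMM scaling and 100.2 CPM after it. Over all rows its chi-square per degree of freedom against the other AE-stems was 103 to 136, where these had 11.1 to 30.1 among themselves.

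In stems of 24 h, AE-stems held 42.1, 59.3 and 65.5 CPM, and control-AE stems held 36.9 and 71.7 CPM. AI-stems held 42.6 and 37.1 CPM, and control-AI stems held 47.9 and 31.0 CPM. In each arm of this time, 1 control library lay below and 1 above all treated libraries.

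**Figure D2:**
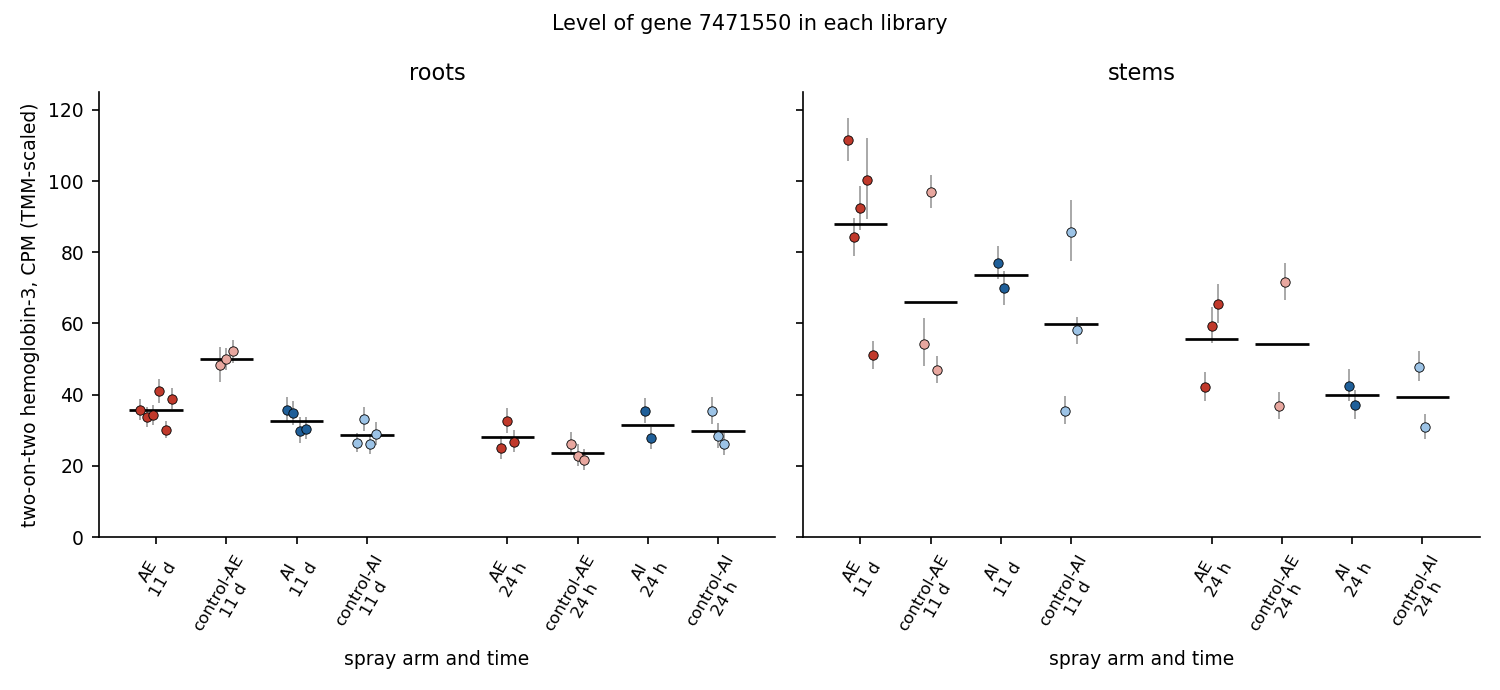
CPM of gene 7471550 in each of the 50 libraries used, roots on the left and stems on the right, by spray arm and time. Points are libraries with their 95% exact Poisson interval of counting error, and black lines are group means. The 3 control-AE root libraries of 11 days, at 48.2 to 52.1 CPM, lie above all other roots, and stems scatter from 31.0 to 112 CPM.

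Ordered by their means, the first 6 of the 16 groups were stems, in the order AE at 11 days (87.9 ± 22.9 CPM, SD, n = 5), AI at 11 days (73.5 ± 5.10, n = 2), control-AE at 11 days (66.1 ± 27.0, n = 3), control-AI at 11 days (59.8 ± 25.2, n = 3), AE at 24 h (55.6 ± 12.1, n = 3) and control-AE at 24 h (54.3 ± 24.6, n = 2). Control-AE roots of 11 days came next (50.1 ± 1.96, n = 3), ahead of the last 2 stem groups, AI at 24 h (39.8 ± 3.90, n = 2) and control-AI at 24 h (39.4 ± 12.0, n = 2). The other root groups followed, from AE-roots of 11 days (35.6 ± 3.87, n = 6), AI-roots of 11 days (32.7 ± 2.95, n = 4), AI-roots of 24 h (31.5 ± 5.37, n = 2), control-AI roots of 24 h (29.9 ± 4.88, n = 3) and of 11 days (28.7 ± 3.20, n = 4) to AE-roots (28.1 ± 3.97, n = 3) and control-AE roots of 24 h (23.6 ± 2.32, n = 3). Each group overlapped with the next in this order except at 1 step, where control-AE roots of 11 days lay above AI-stems of 24 h in every library.

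Whether a spray changed the gene was asked by comparing each treatment with its own control, by edgeR's quasi-likelihood test fitted on all rows of the 2 groups, with Benjamini-Hochberg adjustment and a call at 0.05. Changes are given on the log2 scale with their standard error. None of the 7 tested changes was called, none had an unadjusted p under 0.05, and DESeq2 called 0 of them. In these comparisons edgeR called 0% of all rows, except for 0.0127% (3 of 23613) in AI-stems of 11 days, while 343 to 2130 rows had an unadjusted p under 0.05 and DESeq2 called 0 to 336.

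In roots, the gene's level in AI-roots of 11 days differed by 0.20 ± 0.11 from that of control-AI roots (95% interval -0.04 to 0.44, edgeR adjusted p = 0.985). AE-roots of 24 h differed by 0.24 ± 0.15 from control-AE roots (interval -0.12 to 0.60, edgeR adjusted p = 1.00), and AI-roots of 24 h by 0.07 ± 0.18 from control-AI roots (interval -0.34 to 0.49, edgeR adjusted p = 0.927). The described change in AE-roots of 11 days was -0.50 ± 0.10, or 0.707 times the level of control-AE roots. In that comparison edgeR called 0.00397% of all rows (1 of 25207), while 1649 rows had an unadjusted p under 0.05 and DESeq2 called 43. The gene's change was negative there only, since the 3 tested root changes were above 0, and each of their intervals reaches across 0.

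In stems the intervals were wider. AE-stems of 11 days differed from control-AE stems by 0.41 ± 0.29 (interval -0.23 to 1.05, edgeR adjusted p = 1.00) and AI-stems of 11 days from control-AI stems by 0.31 ± 0.34 (interval -0.48 to 1.11, edgeR adjusted p = 0.848). The AI value was 0.037 without control-AI stem replicate 1 and 0.66 without control-AI stem replicate 2. At 24 h the change was 0.04 ± 0.32 for AE-stems (interval -0.74 to 0.81, edgeR adjusted p = 0.999) and 0.01 ± 0.21 for AI-stems (interval -0.48 to 0.51, edgeR adjusted p = 1.00).

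Whether the sprays differed in their effect on the gene was also tested, as the AE change less the AI change. This difference was 0.17 ± 0.24 in roots of 24 h (edgeR adjusted p = 0.987), 0.10 ± 0.49 in stems of 11 days (edgeR adjusted p = 1.00) and 0.03 ± 0.45 in stems of 24 h (edgeR adjusted p = 1.00). No difference between the sprays was found for the gene in these 3 settings, in which edgeR called 0% of all rows, with 742 to 1076 rows at an unadjusted p under 0.05 and 0 to 10 called by DESeq2.

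The control arms received the same solution, so control-AE was compared with control-AI. The study states that AE and AI were run independently, each beside its own controls. A difference between the control arms therefore cannot be told apart from one between the separate experiments. In roots of 11 days the described difference was 0.80 ± 0.12, which put control-AE roots at 1.74 times the level of control-AI roots, with no overlap between 3 and 4 libraries. In that comparison edgeR called 0% of all rows (0 of 23479), while 3677 rows had an unadjusted p under 0.05 and DESeq2 called 1031. This difference between controls was larger in size than the described change of AE-roots against control-AE roots, and the 2 share the control-AE libraries. In roots of 24 h the difference had the other sign, -0.33 ± 0.15 (interval -0.66 to 0.01, edgeR adjusted p = 0.206), in a comparison where edgeR called 6.56% of all rows (1458 of 22241). In stems it was 0.14 ± 0.37 at 11 days (edgeR adjusted p = 1.00) and 0.47 ± 0.38 at 24 h (edgeR adjusted p = 0.907). None of the 3 tested differences was called by edgeR or by DESeq2 and none had an unadjusted p under 0.05, and edgeR called 0% of all rows in both stem comparisons, with 708 and 1476 rows at an unadjusted p under 0.05 and 13 and 131 called by DESeq2.

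**Figure D3:**
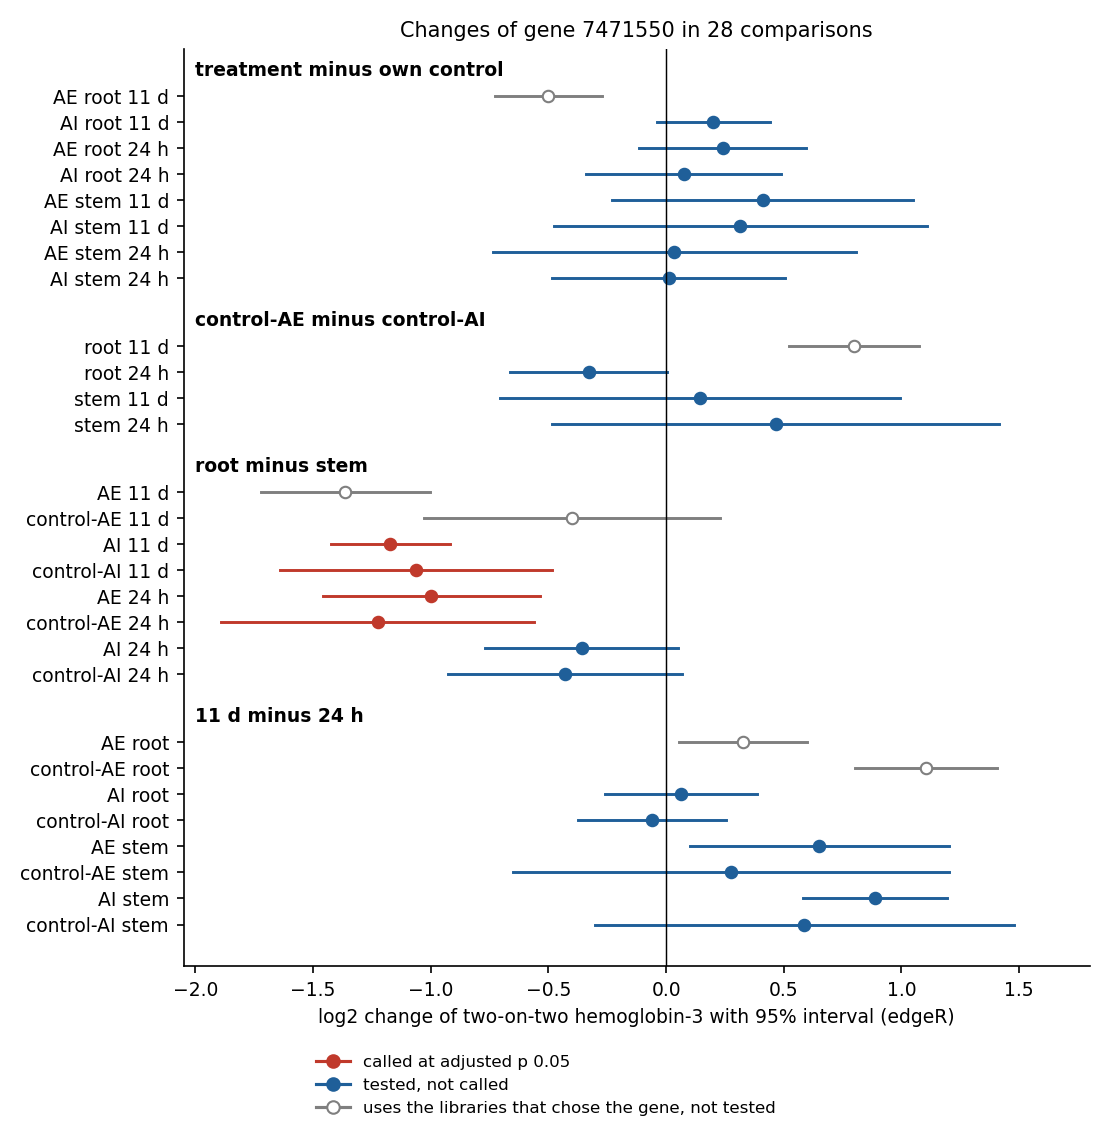
Log2 change of gene 7471550 with its 95% interval from edgeR in 28 comparisons, grouped as treatment minus its own control, control-AE minus control-AI, root minus stem, and 11 days minus 24 h. Red points passed the adjusted threshold, blue points were tested and did not, and open grey points use the libraries that chose the gene and were not tested. All 8 root minus stem values lie below 0, and the 4 red ones lie between -1.23 and -0.998.

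The clearest pattern of the gene was its lower level in roots than in stems. Root minus stem was negative in all 8 pairings of arm and time, and edgeR called 4 of the 6 that could be tested. Between 39.1% and 47.5% of all rows were called in those 6 comparisons, so a call between root and stem was common among all genes and the share of 4 in 6 is read against that.

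At 11 days, AI-roots were at 0.444 times the level of AI-stems, a log2 change of -1.17 ± 0.11 (edgeR adjusted p = 4.72e-05, with 46.1% of all rows called, 22.5% lower and 23.6% higher), and all 4 root libraries lay below both stem libraries. Control-AI roots were at 0.479 times the level of control-AI stems, -1.06 ± 0.26 (edgeR adjusted p = 0.00872, with 40.5% of all rows called, 20.5% lower and 20% higher), again without overlap of 4 root and 3 stem libraries. The described values at 11 days were -1.36 ± 0.17 for AE and -0.40 ± 0.27 for control-AE, and the control-AE value was -0.016 without stem replicate 2. The control-AE pair was the one at 11 days whose roots and stems overlapped.

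At 24 h, AE-roots were at 0.501 times the level of AE-stems, -0.998 ± 0.198 (edgeR adjusted p = 0.00499, with 42.8% of all rows called, 21.6% lower and 21.2% higher). Control-AE roots were at 0.427 times the level of control-AE stems, -1.23 ± 0.28 (edgeR adjusted p = 0.0144, with 39.1% of all rows called, 20.1% lower and 19% higher). The groups of these pairs did not overlap. The control-AE call at 24 h rested on few libraries, since it was lost without root replicate 2 (-1.20, edgeR adjusted p = 0.0593) or root replicate 3 (-1.19, 0.0557), and the change was -0.67 without stem replicate 3, the library at 71.7 CPM, with an edgeR adjusted p of 0.0316. In the AI arm at 24 h the changes were smaller and were not called, although AI-roots and AI-stems did not overlap, with -0.36 ± 0.17 for AI (edgeR adjusted p = 0.137, with 42.9% of all rows called) and -0.43 ± 0.21 for control-AI (edgeR adjusted p = 0.138, with 47.5% of all rows called). The control-AI change became -0.72 and was called without stem replicate 3 (edgeR adjusted p = 0.0308) and was -0.066 without stem replicate 1 (edgeR adjusted p = 0.833).

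The tissue labels were checked on 4 shoot marker rows, 2 for chlorophyll a-b binding proteins and 2 for the small chain of ribulose bisphosphate carboxylase. Their summed level was 3.90 to 75.5 CPM in the 28 root libraries and 542 to 1609 CPM in the 22 stem libraries, without overlap. All 4 were called lower in roots in each of the 6 tested comparisons, where 39.1% to 47.5% of all rows were called in either direction. No rows for root markers could be named. The control-AE roots of 11 days held 6.15 to 21.8 CPM of these markers in sum, within the range of the other roots. The single rows did not all go the same way. Among roots of 11 days, the mean of chlorophyll a-b binding protein CP29.3 (7488015) was highest in control-AE, at 4.81 CPM. It was 1.79 to 2.39 CPM in the other groups of that time. The other marker rows had their lowest mean in control-AE. Whether shoot tissue in these libraries was related to their hemoglobin level was not tested.

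Between 11 days and 24 h, the gene was higher at the later time in 7 of 8 comparisons. Those in AE-roots and control-AE roots used the libraries that chose the gene. Of the 6 tested changes, 1 was below 0, and none was called by edgeR. AI-stems of 11 days exceeded those of 24 h by 0.89 ± 0.13 (interval 0.58 to 1.20), both libraries of 11 days above both of 24 h, with an unadjusted p = 0.000195 and an edgeR adjusted p = 0.0924, where edgeR called 0.115% of all rows (26 of 22653). DESeq2 called this change (adjusted p = 0.00359), as did edgeR with no filter on low counts (0.00131), and so did edgeR without stem replicate 3 (0.00815) or 5 (0.000246) of 11 days, while the adjusted p ranged from 0.00131 to 1 over the 5 alternatives that kept all of these libraries. AE-stems of 11 days exceeded those of 24 h by 0.65 ± 0.25 (edgeR adjusted p = 0.198, unadjusted p = 0.0247, with 2.42% of all rows called). The other stems differed by 0.28 ± 0.39 in control-AE (edgeR adjusted p = 0.855, with 0.893% of all rows called) and 0.59 ± 0.38 in control-AI (edgeR adjusted p = 0.948, with 0.00885% of all rows called). All 4 stem changes were above 0, and the AI arm alone had no overlap between the times.

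In roots, AI changed by 0.06 ± 0.14 between the times (interval -0.26 to 0.39, edgeR adjusted p = 0.921) and control-AI by -0.06 ± 0.14 (interval -0.38 to 0.26, edgeR adjusted p = 0.885). In both comparisons edgeR called 0% of all rows, where 1525 and 2949 rows had unadjusted p-values under 0.05 and the calls of DESeq2 numbered 3 and 391. The described changes were 0.33 ± 0.12 for AE and 1.10 ± 0.13 for control-AE, or 2.15 times the level of 24 h. Many rows changed in these comparisons, where edgeR called 3769 of 25107 rows for AE and 508 of 22360 for control-AE. DESeq2 called 4921 and 1642. Among the root arms, the control-AE arm alone had libraries of 11 days that all lay above those of 24 h.

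The difference between tissues was also compared between times in the arm that the choice of the gene did not use. Root minus stem at 11 days minus root minus stem at 24 h was -0.82 ± 0.20 for AI (unadjusted p = 0.00183, edgeR adjusted p = 0.893, with 0% of all rows called, 1250 rows at an unadjusted p under 0.05 and 8 called by DESeq2). For control-AI it was -0.65 ± 0.39 (edgeR adjusted p = 0.927, with 0.0156% of all rows called). Both values were negative, and neither passed the test across all rows.

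Genes of 3 related pathways were followed beside the hemoglobin gene. The files hold no product names, so these came from a table of the study that was available for 1998 of the 62007 rows, those with the lowest p-values for AE-roots of 11 days. The lists are therefore incomplete and were selected by that contrast. No other globin was among the named rows, and whether reads were shared with a near-identical globin copy was not tested. The low-oxygen list had 11 rows of 10 genes, the nitrate list 1 row and the heme list 5 rows.

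Low-oxygen genes encode the fermentation enzymes pyruvate decarboxylase and alcohol dehydrogenase, the sucrose-cleaving enzyme sucrose synthase, the plant cysteine oxidase that senses oxygen in Arabidopsis, and transcription factors that in Arabidopsis respond to low oxygen. Among the 11 rows, 6 were called lower and 1 higher in AI-roots than in AI-stems at 11 days, 3 lower and 2 higher in control-AI, 4 lower and 2 higher in AE at 24 h, and 5 lower and 3 higher in control-AE at 24 h. Over all rows tested, 22.5% were called lower and 23.6% higher in the first of these comparisons, 20.5% and 20% in the second, 21.6% and 21.2% in the third and 20.1% and 19% in the fourth. Their median log2 changes were -0.66, -0.07, -0.73 and -0.62 in that order, where the median of all rows was 0.00132, -0.00370, -0.00347 and -0.00902. The list did not move as a block between root and stem.

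The 3 most abundant rows per kilobase were all lower in roots. Alcohol dehydrogenase 7466418 ran from 117 to 568 CPM in roots and from 766 to 2219 CPM in stems and changed by -2.12 ± 0.13 in AI at 11 days (edgeR adjusted p = 3.76e-06). Pyruvate decarboxylase 2 (7460369) held 54.0 to 154 CPM in roots and 348 to 1008 CPM in stems and changed by -2.47 ± 0.17 (edgeR adjusted p = 7.90e-06). The transcription factor LOB domain-containing protein 41 (18099497) held 26.1 to 70.2 CPM in roots and 50.6 to 187 CPM in stems and changed by -1.22 ± 0.16 (edgeR adjusted p = 0.000336). These 3 rows were called lower in roots in each of the 6 tested comparisons, in which 39.1% to 47.5% of all rows were called in either direction.

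Other members went the other way or stayed between, in the same 6 comparisons with 39.1% to 47.5% of all rows called. Alcohol dehydrogenase 18097767 was called higher in roots in all 6 tested comparisons, at 0.94 ± 0.16 in AI of 11 days, and pyruvate decarboxylase 1 (7472319) in 5 of them, at 0.64 ± 0.19 in control-AI of 11 days. The second row of LOB domain-containing protein 41 (7477423) was called higher in control-AE of 24 h alone (0.46 ± 0.14). The ethylene-responsive factor ERF071 (7487802) was called lower in AI of 11 days (-1.37 ± 0.15) and in control-AE of 24 h (-0.80 ± 0.21), plant cysteine oxidase 2 (7494583) in AI of 11 days alone (-0.66 ± 0.20), and of the rows of sucrose synthase 18100284, variant X4 was lower in 5 of the 6 comparisons and variant X3 in 1.

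Nitrate reductase [NADH] (7463180), whose product nitrite is a source of nitric oxide in plants, was higher in roots where it was called, opposite in sign to the hemoglobin gene. It ran from 38.8 to 282 CPM in roots and from 26.7 to 119 CPM in stems. It was called at 1.04 ± 0.27 in control-AI of 11 days, 1.06 ± 0.33 in AE of 24 h and 1.26 ± 0.36 in control-AE of 24 h (edgeR adjusted p = 0.0122, 0.0321 and 0.0350). In these comparisons 40.5%, 42.8% and 39.1% of all rows were called. Its change was not called by edgeR in AI of 11 days (0.14 ± 0.35, edgeR adjusted p = 0.784), AI of 24 h (0.88) or control-AI of 24 h (0.12). There 46.1%, 42.9% and 47.5% of all rows were called. DESeq2 also called it higher in AI of 24 h.

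Of the 5 heme rows, the same 2 were called lower in roots in each of the 6 tested comparisons, in which 39.1% to 47.5% of all rows were called in either direction. Glutamyl-tRNA reductase 1 (7461831), which feeds the tetrapyrrole pathway of both heme and chlorophyll, held 30.1 to 44.6 CPM in roots and 59.0 to 119 CPM in stems and changed by -1.42 ± 0.13 in AI of 11 days. Coproporphyrinogen-III oxidase (7485528), a later enzyme of that pathway, changed by -0.71 ± 0.11 there. Ferrochelatase-1 (7470718), which inserts iron to make heme, was not called in AI or control-AI of 11 days or in AE or control-AE of 24 h, with changes of 0.16 to 0.30 in these 4. It was called higher in roots in AI of 24 h (0.57 ± 0.14) and control-AI of 24 h (0.47 ± 0.16). The glutamyl-tRNA reductase-binding protein (7469481) and sirohydrochlorin ferrochelatase (7486640), which serves siroheme and not heme, were not called in any of the 6 tested comparisons, with 0.08 to 0.38 for the binding protein and -0.42 to -0.09 for the siroheme enzyme.

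**Figure D4:**
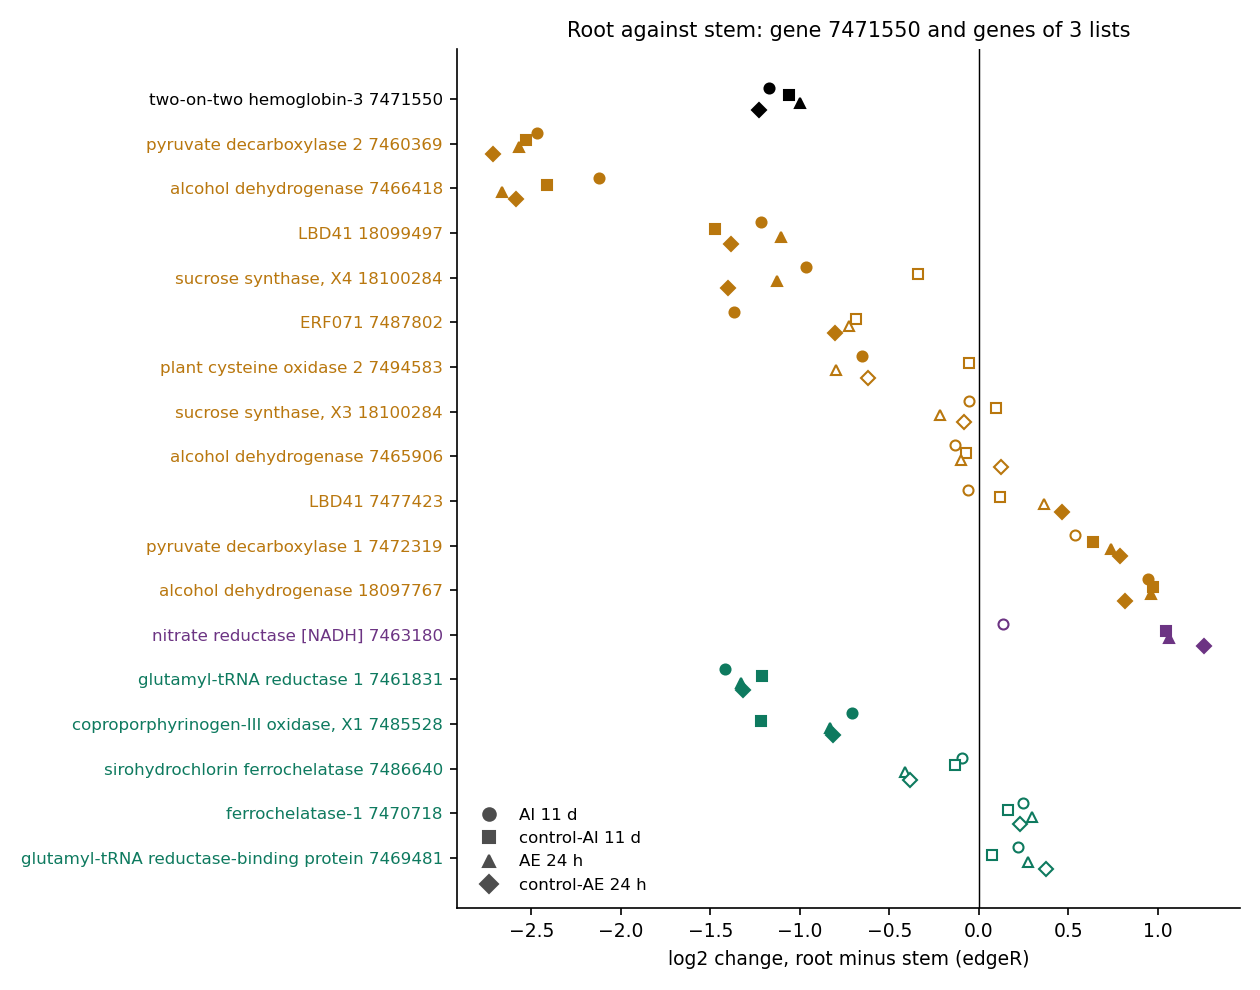
Log2 change of root minus stem for gene 7471550 (black) and the rows of the low-oxygen (ochre), nitrate (purple) and heme (green) lists, in the 4 comparisons where the hemoglobin gene was called. Filled markers passed the adjusted threshold in edgeR and open ones did not, and marker shapes name the arm and time. The hemoglobin gene lies between -1.23 and -0.998, and the low-oxygen rows spread from below -2.5 to above 0.5.

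Outside root against stem, few rows of the lists were called, as was the case for all rows. Over the 7 treatment, 3 control-arm and 6 time comparisons that were tested, and the 5 differences of changes, edgeR made 1 call among the 17 rows and DESeq2 made 4, while edgeR called between 0% and 6.56% of all rows in these comparisons. The low-oxygen list had its highest median change, 0.43, in AI-stems of 11 days against 24 h, and 0.38 in AE-stems of 11 days against control-AE stems, where the medians of all rows were -0.00062 and 0.0018. The edgeR call was LOB domain-containing protein 41 (18099497), at 0.61 ± 0.14 in control-AE roots of 24 h against control-AI roots (edgeR adjusted p = 0.0411), a comparison in which the hemoglobin gene changed by -0.33 and was not called.

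The genes on either side were compared as a check of position. Gene 7471549 ends 1393 bp from the 3' end of the hemoglobin gene and held 1.52 to 8.50 CPM in roots and 0.234 to 4.18 CPM in stems, with medians of 4.21 and 0.820, so it ran opposite to the hemoglobin gene. Gene 7495727 starts 2203 bp from its 5' end on the other strand and held a median of 10.4 CPM in roots and of 10.4 CPM in stems in 1 transcript, while its other transcript was listed at 0. Neither neighbor has a name in the sources used here.

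Across the 16 group means of log2(CPM + 0.5), 26 of 27674 rows had a Pearson r above 0.9 with the hemoglobin gene. The 5 closest genes were 18108629 (r = 0.957), 112325196 (0.955), 7483814 (0.952), 18106263 (0.944) and 7460700 (0.939). The points share their libraries, and the pattern includes the groups that chose the gene, so r is a description. Gene 18106263 is named as an uncharacterized locus and the other 4 have no name here. They were expressed far below the hemoglobin gene, with root and stem medians of 0.984 and 2.73 CPM for 18108629, 1.52 and 5.29 for 112325196, 1.32 and 4.25 for 18106263, 0.0834 and 0.401 for 7460700, and 12.9 and 15.4 for 7483814. The genes were picked by their likeness to this pattern, so its main features recur in them by the choice. In each of the 5, control-AE was the highest root group of 11 days, and the stems of 11 days were high. For 18108629 these roots held 2.03 CPM, against 1.16 CPM in control-AI. Gene 7460700 lay near the floor, with a mean of 0 CPM in control-AE roots of 24 h, so its pattern rests on few counts. Over single libraries r was lower, from 0.615 for 7483814 to 0.872 for 112325196.

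**Figure D5:**
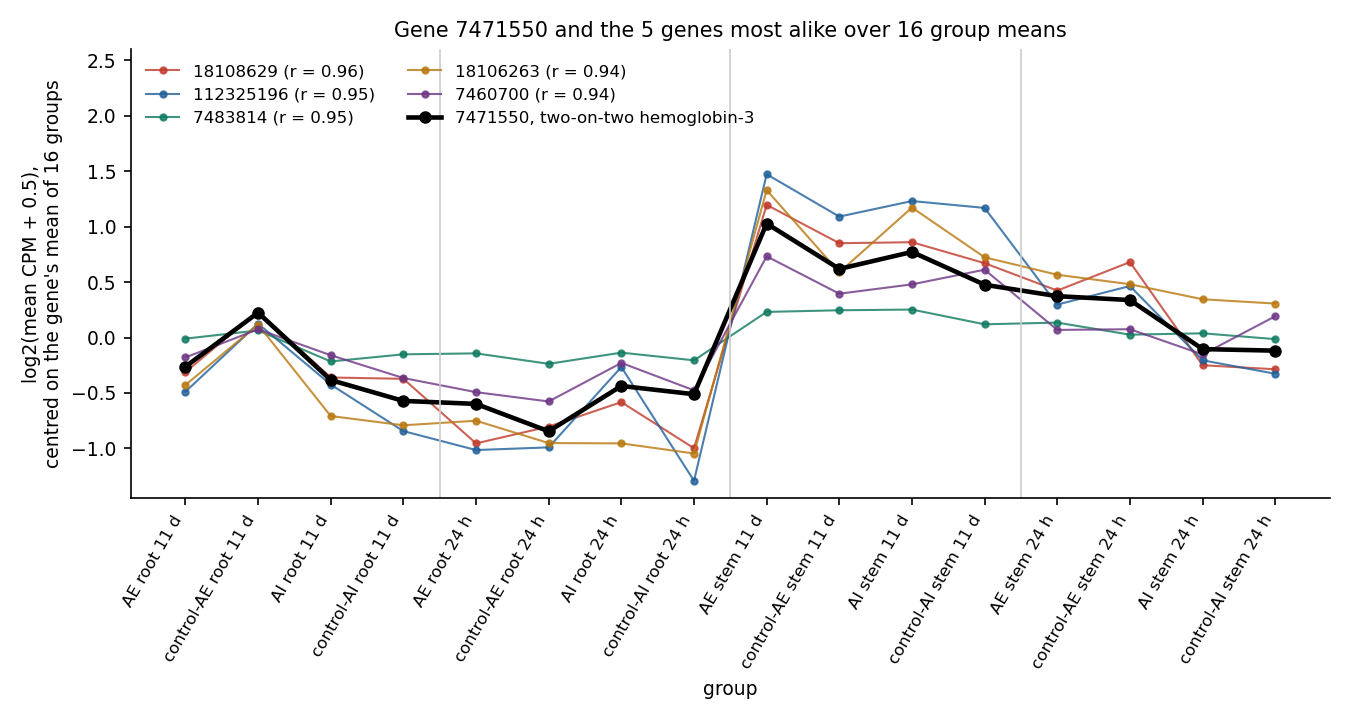
Group means of gene 7471550 (black) and the 5 genes with the most similar pattern, as log2(mean CPM + 0.5) centred on each gene's mean of the 16 groups, with roots on the left and stems on the right. The lines reach their root maximum in control-AE of 11 days and are highest in a stem group of 11 days, a likeness by which the 5 genes were picked. Gene 7483814 varies least.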

How the data were processed

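The authors sequenced polyadenylated RNA of each sample, mapped the trimmed reads to a genome of Populus trichocarpa and deposited raw read counts per transcript row; the submitters' processing notes name FastQC, STAR, featureCounts and Subread. Libraries of at least 1000000 counts were used, and groups were taken from the sample labels. Each pair of groups was fitted by itself with edgeR 4.0.16 in R 4.3.3 (TMM factors, filterByExpr at 10 counts and a total of 15, then glmQLFit and glmQLFTest), with Benjamini-Hochberg adjustment over all rows at 0.05, and the fits were tested on simulated data. Standard errors are the absolute log2 change divided by the square root of F, and intervals are 95%. CPM used TMM factors over all 50 libraries. The alternatives were DESeq2 1.42.0, median-of-ratios factors, no filter, all libraries, those with an acceptable depth label, a joint fit of 16 groups, a replicate block, counts summed per gene and each library left out. Named genes were the hemoglobin gene, its neighbors, the 3 most abundant rows of each list with any called beside it, and the 5 genes most alike. The gene and the lists were chosen with earlier results of these data known. Python 3.11.15 with scipy 1.17.1, pandas 2.3.3 and matplotlib 3.10.9 made the tables and plots. Sequences were not used here.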

Additional observations from a re-analysis of the deposited data

How the results depend on the processing

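Of 335 alternative values for the 27 tests, 303 kept the direction and the side of the threshold. Where no library was left out, all 39 alternative values of the described changes and 40 of 42 alternative group levels moved by less than the spread between replicates, and with all 64 libraries the level moved to 46.9 CPM in control-AE roots and 29.4 CPM in AI-roots of 11 days. AI-stems of 11 days against 24 h were called at 0.89 by DESeq2 and at 0.89 with no filter. With a replicate block, AE-stems of 11 days against control-AE stems were called at 1.03 (edgeR adjusted p = 0.0134, from 2 shared numbers), root minus stem in AE of 24 h was no longer called at -0.82 (edgeR adjusted p = 0.0752), and no other call changed. Replicate numbers did not pair the samples, since same-numbered libraries correlated between -0.24 and 0.31 and in 0 of 6 comparisons with 3 or more numbers did every pair exceed 0.1.

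With each library left out in turn, calls or signs changed in these ranges of log2 change. Treatment minus control ran from -0.13 to 0.24 in AI-roots of 24 h, -0.38 to 0.60 in AE-stems of 24 h and -0.25 to 0.34 in AI-stems of 24 h. Control-AE minus control-AI ran from -0.25 to 0.49 in stems of 11 days and -0.11 to 0.88 in stems of 24 h. Root minus stem ran from -1.63 to -0.67 in control-AE of 24 h and -0.72 to -0.066 in control-AI of 24 h. The level at 11 days minus that at 24 h ran from -0.11 to 0.26 in AI-roots, -0.16 to 0.074 in control-AI roots, -0.13 to 0.84 in control-AE stems and 0.80 to 0.98 in AI-stems. The change under AE minus that under AI ran from -0.26 to 0.50 in stems of 11 days and -0.38 to 0.60 in stems of 24 h. The cause was not tested. In groups of 2, the library left over is assumed to vary like the other group.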
